A study of Mus musculus with 6 samples.

Results

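The nuclear genes for the subunits of respiratory complexes II, III, IV and V were compared between the kidneys of WT and Trpm2-/- mice after cisplatin. Members were the protein-coding rows of the count table whose symbol was one of Sdha, Sdhb, Sdhc, Sdhd and Cyc1 or began with Uqcr, with Cox and a digit from 4 to 8, or with Atp5, which gave 49 of 54532 genes, with 4 in complex II, 9 in complex III, 18 in complex IV and 18 in complex V. The rule used names and no expression value. The gene Atp5o has 2 identifiers in the table, so the 49 rows carry 48 symbols, and 8 further rows with matching names are annotated as pseudogenes and were left out.

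RNA was sequenced from whole kidneys of 3 WT mice and 3 Trpm2-/- mice (numbered 1, 2 and 4) of the strain C57BL/6J, all of which had received cisplatin, a platinum drug that injures the renal tubule, at 18 mg/kg 72 h earlier, so there is no group without the drug. The labels give an age of 6-8 weeks, while the methods give an older range for male mice, with the drug given by a single intraperitoneal injection. The Trpm2-/- allele is a constitutive deletion that leaves the channel protein without a part of its membrane domain. By the methods the WT mice were bought from a supplier, and the Trpm2-/- line was brought in from a university. Littermates are not described, so genotype and the source of the mice cannot be told apart. Total counts per mouse were between 14053307 and 17150089. Trpm2, the deleted channel gene, had 5, 5 and 27 reads in the WT mice and 10, 16 and 20 reads in the Trpm2-/- mice, and since reads outside the deleted exons are counted too, this does not check the genotype.

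The mitochondrial respiratory chain passes electrons from nutrients to oxygen and stores the energy as a proton gradient, which complex V, the ATP synthase, uses to make ATP. Complex II is succinate dehydrogenase and also a step of the tricarboxylic acid cycle, complex III hands electrons from ubiquinol to cytochrome c, and complex IV, cytochrome c oxidase, passes them to oxygen. Complex II is encoded in the nucleus alone, whereas the other 3 also hold subunits from the mitochondrial genome. The proximal tubule, which reabsorbs most of the filtrate and takes up cisplatin, is rich in mitochondria and depends on oxidative phosphorylation.

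Promoters of a few members are shown first, since factors known to drive respiratory genes, such as NRF1, the ETS factor GABP, the estrogen-related receptor ESRRA and YY1, bind short motifs near their start sites. Windows from 250 bases before to 50 bases after the start were taken from RefSeq (GRCm38.p6), in which 36 of the 48 symbols had an entry. The motifs searched on both strands were GCGCATGC for NRF1, CCGGAAG for ETS factors, AAGGTCA for ESRRA and AAGATGGC for YY1. The palindromic form of the NRF1 motif counts on both strands at overlapping positions. Of the 39 windows of member genes, 17.9% held the NRF1 motif, 30.8% the ETS motif, 12.8% the ESRRA motif and 7.69% the YY1 motif, compared with 2.71%, 8.86%, 4.72% and 2.75% of all 32851 windows. These shares were not adjusted for base composition, and a match is a match of letters only. One gene of each complex is shown, chosen after the matches were seen, as the 170 bases before the RefSeq start site in the direction of the gene, with matches in capitals. All 4 genes lie on the minus strand.
Sdhd: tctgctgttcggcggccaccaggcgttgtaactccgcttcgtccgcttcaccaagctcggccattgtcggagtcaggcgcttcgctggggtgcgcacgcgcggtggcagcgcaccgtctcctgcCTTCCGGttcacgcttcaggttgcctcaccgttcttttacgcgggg
Uqcr11: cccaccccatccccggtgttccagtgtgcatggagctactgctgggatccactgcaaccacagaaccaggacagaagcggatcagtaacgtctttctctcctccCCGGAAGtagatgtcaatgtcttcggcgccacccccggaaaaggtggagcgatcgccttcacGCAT
Cox6a1: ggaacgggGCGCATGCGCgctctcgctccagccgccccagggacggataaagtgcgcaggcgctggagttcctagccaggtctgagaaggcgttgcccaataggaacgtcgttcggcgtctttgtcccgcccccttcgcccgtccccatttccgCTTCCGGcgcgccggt
Atp5g3: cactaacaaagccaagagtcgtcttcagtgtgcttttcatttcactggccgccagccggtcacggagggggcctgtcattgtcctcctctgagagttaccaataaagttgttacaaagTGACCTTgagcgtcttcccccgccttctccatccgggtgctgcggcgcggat
The Sdhd stretch (chr9:50603850-50604019) and the Uqcr11 stretch (chr10:80406822-80406991) each hold an ETS motif, and the last 4 capitals of Uqcr11 begin an NRF1 motif that runs across the start site. The Cox6a1 stretch (chr5:115348959-115349128) holds the palindromic NRF1 motif and an ETS motif. The Atp5g3 stretch (chr2:73911327-73911496) holds an ESRRA motif on the opposite strand.

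Subunit genes of all 4 complexes were lower in Trpm2-/- kidneys. Of the 44 members with enough reads to test, 32 fell (72.7%) by edgeR's quasi-likelihood test at a Benjamini-Hochberg adjusted p under 0.05, when 7.28% of all 15816 genes tested were called lower. None of the 44 rose, against 4.74% of all genes called higher. All 44 estimates were below 0, with a median log2 fold change (Trpm2-/- minus WT) of -0.76 and a range from -1.47 to -0.16, while the median of all genes tested was 0.02. In linear terms the median ratio of Trpm2-/- to WT was 0.590. The threshold of the study's methods, an absolute log2 fold change over 1 with an unadjusted p under 0.05, was passed by 3 members, Atp5g3, Atp5k and Cox7a1, against 4.1% of all genes in the lower direction.

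**Figure D1:**
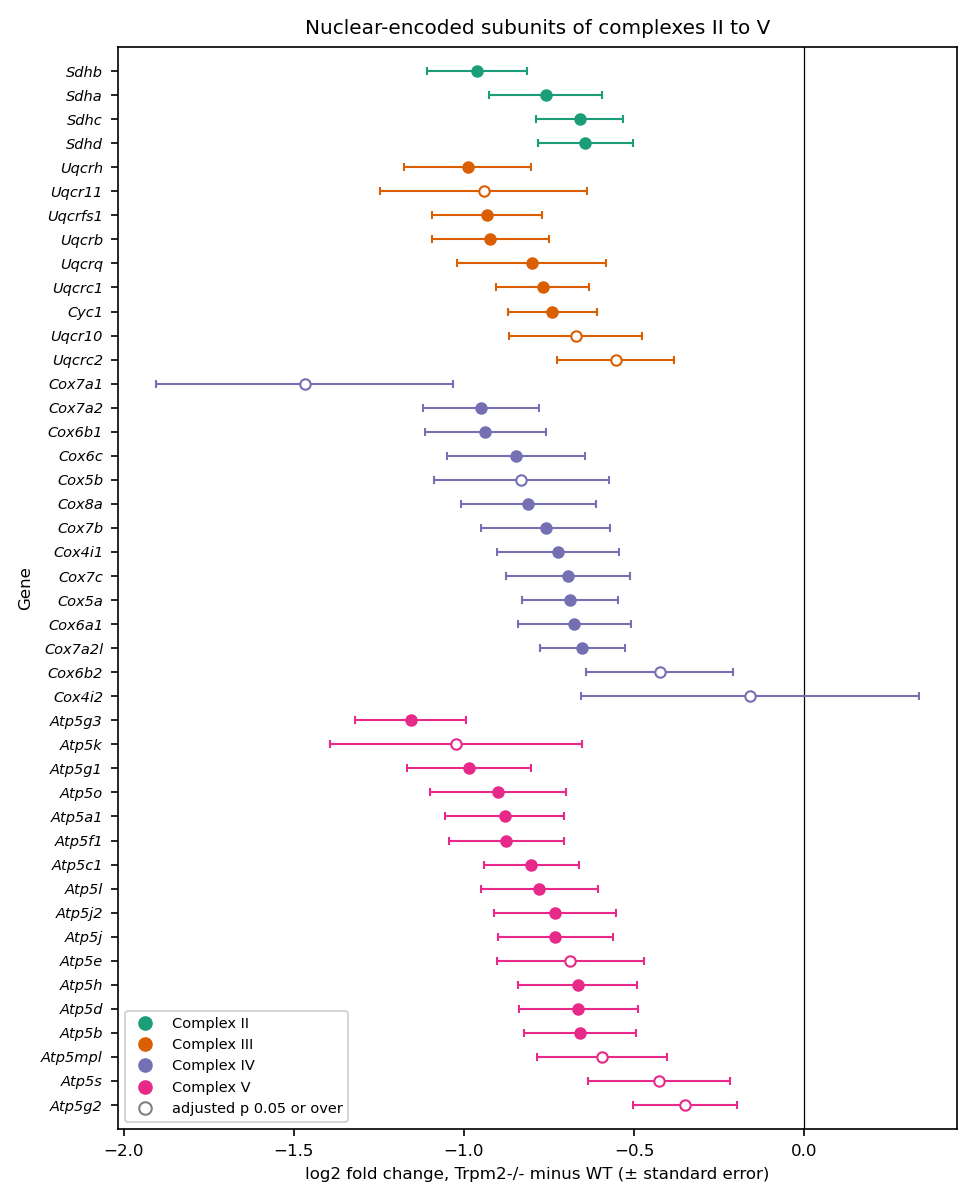
Log2 fold change of each of the 44 tested members (x axis, Trpm2-/- minus WT, with the standard error as bars), grouped and coloured by complex, with filled points for an adjusted p under 0.05. Every point lies left of 0, and the 12 open points include Cox7a1 at -1.47 as well as Cox4i2 at -0.16.

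For 35 of the 44 members every Trpm2-/- mouse was below every WT mouse, an order shown by 16.8% of all genes tested. The members together took 1.74%, 2.02% and 2.11% of the counts of the WT mice and 1.16%, 1.32% and 1.21% of those of the Trpm2-/- mice, so the summed share did not overlap between genotypes. The number of calls changed when a mouse was left out, among all genes too. Without WT mouse 3, 7 members were called lower with 2.88% of all genes, without WT mouse 2 10 members with 3.17%, and without Trpm2-/- mouse 1 20 members with 5.19%. The count was 34 without WT mouse 1 (5.84% of all genes), 38 without Trpm2-/- mouse 2 (7.62%) and 26 without Trpm2-/- mouse 4 (6.34%). After a correction for gene length it was 21, with 6.28% of all genes and a members' median of -0.59, and in a test against a fold change of 1.2 it was 17, with 4.198% of all genes. In each of these settings no member was called higher. In bulk tissue, fewer cells of a type and less RNA per cell cannot be told apart.

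**Figure D2:**
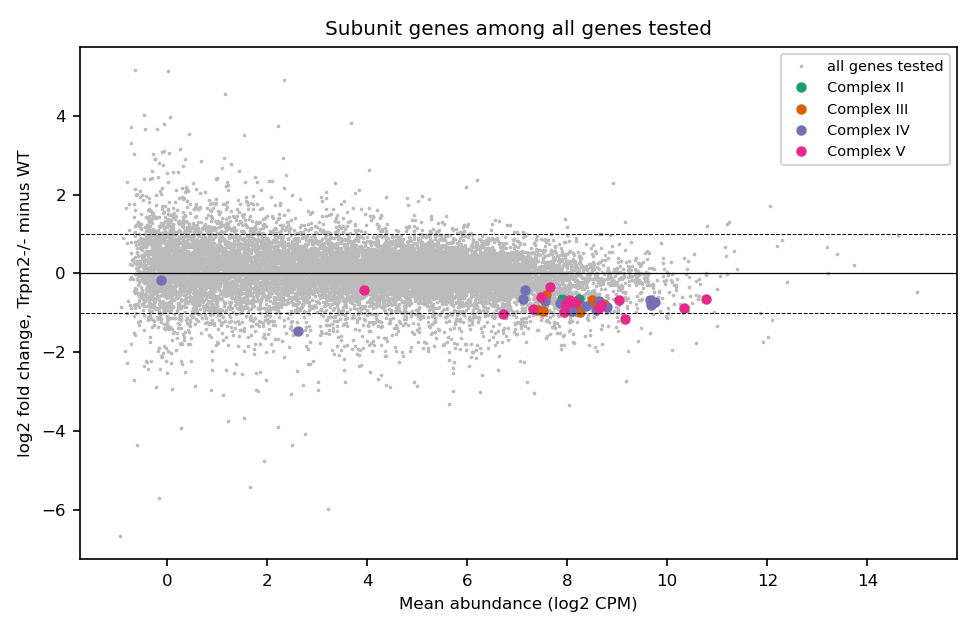
Log2 fold change (y axis) against mean abundance (x axis, log2 CPM) for the 15816 genes tested in grey and the 44 members coloured by complex, with dashed lines at 1 and -1. The members lie below 0, most of them at the abundant end of the range.

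The members are abundant genes. Of the 44, 31 belonged to the 5% of tested genes with the highest mean CPM (counts scaled to a common library size after TMM normalization), and the mean FPKM (fragments per kilobase of gene, scaled to library size) in WT kidneys ran from 0.925 for Cox4i2 to 1663 for Cox8a. They are also short, with a median gene length of 1715.5 bases against 3879 bases for all genes tested, and this bears on the length correction above. Their median GC content was 49.8%, near the 50.1% of all genes.

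All 4 genes of complex II fell, with a median of -0.71. Together they summed to 1364, 1593 and 1558 CPM in the WT mice and 946, 874 and 852 CPM in the Trpm2-/- mice. Sdhb (ENSMUSG00000009863, chr4:140961203-140979193, GRCm38), the iron-sulphur subunit of the catalytic head, had 319, 376 and 394 CPM in the WT mice and 163, 197 and 199 CPM in the Trpm2-/- mice. The groups did not overlap, and the log2 fold change was -0.96 ± 0.15 (standard error, 3 mice per genotype, edgeR adjusted p = 0.00470). Sdha, the flavoprotein that oxidises succinate, had 439, 503 and 504 CPM in the WT mice and 349, 249.7 and 255 CPM in the Trpm2-/- mice. Its highest Trpm2-/- value, that of mouse 1, stayed below all WT mice (log2 fold change -0.76 ± 0.17, edgeR adjusted p = 0.0194). The membrane anchor is made by Sdhc and Sdhd. Sdhc had 338, 387 and 384 CPM in the WT mice and 234, 239 and 229 CPM in the Trpm2-/- mice, and Sdhd had 268, 327 and 276 CPM in the WT mice and 201, 189 and 169 CPM in the Trpm2-/- mice. The Trpm2-/- mice were below the WT mice for both genes, with log2 fold changes of -0.66 ± 0.13 and -0.64 ± 0.14. Of the assembly factors of complex II, Sdhaf4, which aids the flavoprotein, fell (log2 fold change -0.75), while Sdhaf1, Sdhaf2 and Sdhaf3 did not pass the test, at -0.47, -0.01 and -0.24.

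In complex III, 6 of 9 genes fell, and the median was -0.80. The sum of the complex was 2892, 3657 and 3758 CPM in WT and 1829.5, 2145 and 1928 CPM in Trpm2-/- mice. The redox and core subunits include Uqcrfs1 (ENSMUSG00000038462, chr13:30540308-30545362), the Rieske iron-sulphur protein, which had 327, 429.9 and 424 CPM in the WT mice and 235, 185 and 199 CPM in the Trpm2-/- mice. All Trpm2-/- mice were below all WT mice, at a log2 fold change of -0.93 ± 0.16 (edgeR adjusted p = 0.00738). Cyc1, cytochrome c1, had 437, 492 and 465 CPM in the WT mice and 277, 291 and 267 CPM in the Trpm2-/- mice, with little spread within either genotype (log2 fold change -0.74 ± 0.13, edgeR adjusted p = 0.00756). Uqcrc1, a core subunit, had 487, 555 and 576 CPM in the WT mice and 324, 299.8 and 327 CPM in the Trpm2-/- mice, again without overlap (log2 fold change -0.77 ± 0.14, edgeR adjusted p = 0.00795). The other core subunit, Uqcrc2, had 213, 234 and 238 CPM in the WT mice and 190.4, 121 and 155 CPM in the Trpm2-/- mice and did not pass, although the groups did not overlap (log2 fold change -0.55 ± 0.17, edgeR adjusted p = 0.0654). A share of 16.5% of the 75-base windows of Uqcrc2 lies in sequence that another gene holds too, so its reads are less certain.

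Among the small accessory subunits of complex III, Uqcrh, Uqcrb and Uqcrq fell, with log2 fold changes of -0.99, -0.92 and -0.80, and 16.7% of the windows of Uqcrb occur in other genes. Uqcr11 had the largest p of the complex, with 191, 269 and 259.8 CPM in the WT mice and 86.4, 199 and 89.5 CPM in the Trpm2-/- mice. Trpm2-/- mouse 2 lay above WT mouse 1 and the other Trpm2-/- mice lay far lower. The log2 fold change was -0.94 ± 0.31 and the edgeR adjusted p was 0.0751. Uqcr10 had 338, 491 and 495 CPM in the WT mice and 228, 331 and 272 CPM in the Trpm2-/- mice, without overlap and with an edgeR adjusted p of 0.0544. Of the 6 assembly factors of complex III, Uqcc1 had the smallest p and did not pass (log2 fold change -0.40, edgeR adjusted p = 0.0746).

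Complex IV has 18 nuclear members, of which 14 could be tested and 10 fell, with a median of -0.74. Their sum was 5130.0, 6831 and 7019 CPM in WT and 3285, 4310.0 and 3586 CPM in Trpm2-/- mice, mouse 2 being the highest of the latter. Several subunits exist as a principal form and a form made in particular tissues or conditions. All 7 genes counted here as principal forms fell, among them Cox7a2l, a relative of Cox7a2. Cox7a2 (ENSMUSG00000032330, chr9:79755361-79759878) had 282, 388 and 418 CPM in the WT mice and 172, 198 and 194 CPM in the Trpm2-/- mice, a log2 fold change of -0.95 ± 0.17 (edgeR adjusted p = 0.00802). Cox6b1 had 408, 549 and 537 CPM in the WT mice and 231, 312 and 238 CPM in the Trpm2-/- mice and changed by -0.94 ± 0.18 (edgeR adjusted p = 0.0105). In neither gene did the genotypes overlap. Cox7a2l, a related protein that takes part in supercomplexes, had 156, 186 and 165 CPM in the WT mice and 109.7, 111 and 103 CPM in the Trpm2-/- mice, also without overlap (log2 fold change -0.65 ± 0.13, edgeR adjusted p = 0.0112).

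The other principal forms were also separated by genotype. Cox4i1 had 880.4, 1130.3 and 1217 CPM in the WT mice and 549, 710.1 and 698 CPM in the Trpm2-/- mice. Cox6a1 had 821, 1082 and 1086 CPM in the WT mice and 586, 694 and 592 CPM in the Trpm2-/- mice. Cox7b had 222, 305 and 349 CPM in the WT mice and 144, 187 and 186 CPM in the Trpm2-/- mice. In these 3 genes the highest Trpm2-/- value was below WT mouse 1, the lowest WT mouse. Cox8a, the most abundant member per length, had 851, 1130.0 and 1129 CPM in the WT mice and 514, 747 and 512 CPM in the Trpm2-/- mice, and its log2 fold change was -0.81 ± 0.20. Of the subunits with a single form, Cox5a, Cox6c and Cox7c fell, with log2 fold changes of -0.69, -0.85 and -0.69, and 19.6% of the windows of Cox7c occur in other genes. Cox5b, the zinc-binding subunit, had 339, 464 and 476 CPM in the WT mice and 188, 348 and 183 CPM in the Trpm2-/- mice and did not pass, and Trpm2-/- mouse 2 was above WT mouse 1 (log2 fold change -0.83 ± 0.26, edgeR adjusted p = 0.0649).

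None of the 3 tested tissue or condition specific forms passed edgeR's test at an adjusted p under 0.05, while 1 of them, Cox7a1, had an unadjusted p under 0.05 and was called by DESeq2 and limma-voom. Cox7a1, the heart and skeletal muscle form, had 7.03, 8.55 and 10.98 CPM in the WT mice and 1.16, 4.85 and 3.61 CPM in the Trpm2-/- mice. The groups did not overlap, but Trpm2-/- mouse 1 was far below the other Trpm2-/- mice, and the log2 fold change of -1.47 ± 0.44 had an edgeR adjusted p of 0.0573. Cox6b2, described as a testis form, had 144, 184 and 163 CPM in the WT mice and 103, 168 and 94.9 CPM in the Trpm2-/- mice, with Trpm2-/- mouse 2 inside the WT range (log2 fold change -0.42 ± 0.22, edgeR adjusted p = 0.231). Cox4i2, the form induced by low oxygen in lung, was near 1 CPM with 0.555, 0.964 and 0.982 CPM in the WT mice and 0.428, 0.751 and 1.06 CPM in the Trpm2-/- mice. The groups overlapped, and the estimate of -0.16 ± 0.50 turned positive after the length correction, at 0.18.

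The remaining forms were too low to test. Cox6a2, the muscle partner of Cox6a1, had 1, 1 and 4 reads in the WT mice and 0 in each Trpm2-/- mouse. Cox7b2 had 3 reads in Trpm2-/- mouse 4 and 0 elsewhere, and Cox8c had 0 in all 6 mice. These counts are at or near the floor of 3 reads, which is 0.175 to 0.213 CPM in these libraries, so no difference was detectable at this depth. Cox8b, a form of brown fat and muscle, had 20 reads in WT mouse 1, 1 in WT mouse 2 and 0 in WT mouse 3, and 3, 0 and 1 in the Trpm2-/- mice. WT mouse 1 thus held most of its reads. The same mouse stood apart in the sum of 4 brown fat markers, which came to 9.44 CPM there and to 0.0613 to 0.546 CPM in the other 5 mice, almost all of it from Cidea at 5.18 CPM and Adipoq at 3.95 CPM. Ucp1, the defining marker of brown fat, did not stand apart, at 0.308, 0.257 and 0 CPM in the WT mice and 0.184, 0.341 and 0.187 CPM in the Trpm2-/- mice, and Elovl3 was at 0 in all mice. Muscle markers summed to 1.35 to 2.80 CPM in all mice.

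Of the 22 assembly factors of complex IV that could be tested, 5 fell and none rose, with a median of -0.34. The 3 with the smallest p were Higd2a (log2 fold change -0.57, a factor of complex IV and supercomplexes), Cmc2 (-0.91) and Higd1a (-0.74). Ndufa4, once assigned to complex I and now counted with complex IV, had 455, 626 and 596 CPM in the WT mice and 285, 309 and 305 CPM in the Trpm2-/- mice and fell by a log2 fold change of -0.90 (edgeR adjusted p = 0.00749).

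Complex V has 18 rows, of which 17 were tested and 12 fell, with a median of -0.73. They summed to 7790.5, 9645 and 9826 CPM in WT and to 5430.3, 5354 and 5114 CPM in Trpm2-/- mice. The sum thus varied little among the Trpm2-/- mice, while single genes could vary more and in opposite directions. The log2 ratio of Trpm2-/- mouse 2 to mouse 1 was -0.44 for Atp5a1 and 0.95 for Atp5k. The row not tested is the second identifier of Atp5o, which was at 0 in every mouse. The c ring, which turns as protons pass, is built of identical proteins made from Atp5g1, Atp5g2 and Atp5g3. Atp5g3 (ENSMUSG00000018770, chr2:73908447-73911326) had the smallest p of all members, with 640.1, 838 and 882 CPM in the WT mice and 376, 341 and 342 CPM in the Trpm2-/- mice and a log2 fold change of -1.16 ± 0.16 (edgeR adjusted p = 0.00351). Atp5g1 had 267, 330.3 and 380.1 CPM in the WT mice and 133, 169 and 192 CPM in the Trpm2-/- mice, and its log2 fold change was -0.99 ± 0.18 (edgeR adjusted p = 0.00939). Atp5g2 had 189, 246 and 241 CPM in the WT mice and 156, 194 and 180.4 CPM in the Trpm2-/- mice. Here Trpm2-/- mouse 2 lay above WT mouse 1, and the smaller log2 fold change of -0.35 ± 0.15 did not pass (edgeR adjusted p = 0.170). A share of 35.8% of the windows of Atp5g2 occurs in other genes, 0% of those of Atp5g3.

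Per length, Atp5g3 was at 316 ± 51.00 FPKM in WT (SD, n = 3), Atp5g2 at 118 ± 16.4 FPKM and Atp5g1 at 58.03 ± 9.89 FPKM, and in Trpm2-/- they were at 143 ± 8.11, 93.2 ± 10.04 and 29.5 ± 5.38 FPKM. The ratio of Atp5g3 to Atp5g2 was 2.60, 2.61 and 2.81 in WT and 1.85, 1.35 and 1.46 in Trpm2-/- mice, without overlap. The ratio of Atp5g1 to Atp5g2 was 0.483, 0.457 and 0.537 in WT and 0.291, 0.296 and 0.362 in Trpm2-/-, again without overlap, and that of Cox6b2 to Cox6b1 was 0.212 ± 0.0160 in WT and 0.295 ± 0.0458 in Trpm2-/- (SD, n = 3). In each of these 3 the two-sided exact permutation p was 0.1, the smallest that 3 against 3 allows, or 0.233 after adjustment over the 7 ratios tested. The other ratios, of Atp5g3 to Atp5g1, Cox7a1 to Cox7a2, Cox7a2l to Cox7a2 and Cox4i2 to Cox4i1, had exact permutation p-values of 0.2 to 0.5. These ratios were chosen after the data had been seen.

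**Figure D3:**
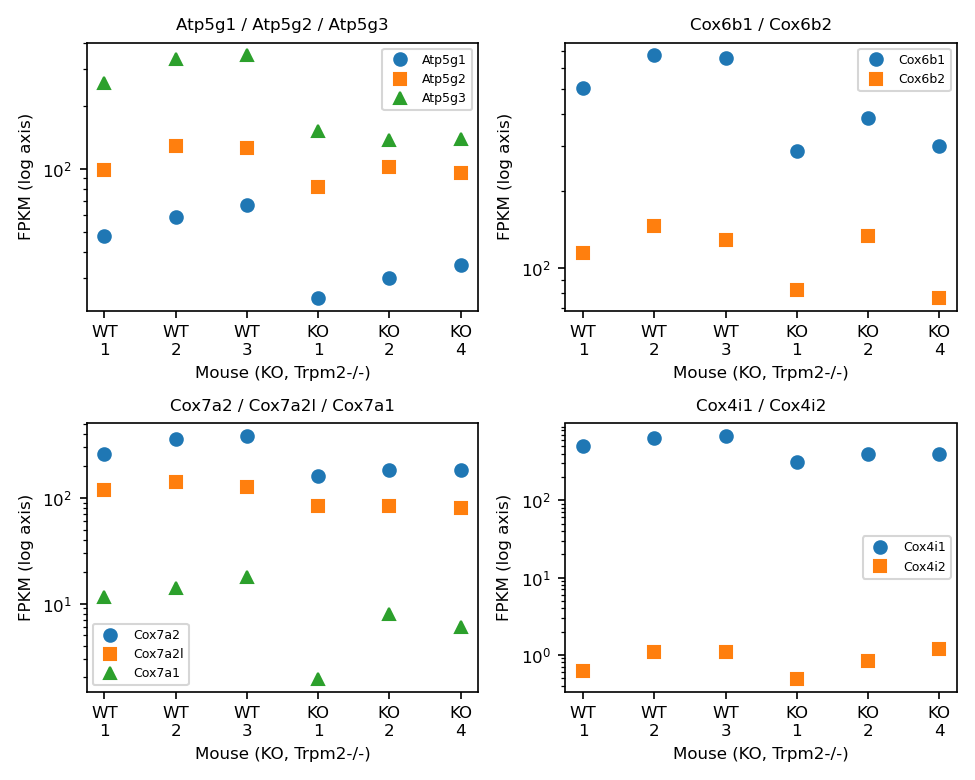
FPKM (log y axis) of the paralogous subunit genes in each of the 3 WT and 3 Trpm2-/- (KO) mice, 1 panel per family. Atp5g3 and Atp5g1 lie lower in the Trpm2-/- mice than in the WT mice while Atp5g2 overlaps, and Cox7a1 is lowest in Trpm2-/- mouse 1.

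The F1 part of the synthase holds the catalytic beta and alpha subunits and the central stalk. Atp5c1, the gamma subunit of that stalk, had 465, 533 and 556 CPM in the WT mice and 295, 280.1 and 316 CPM in the Trpm2-/- mice, with no overlap (log2 fold change -0.80 ± 0.14, edgeR adjusted p = 0.00719). Atp5a1, Atp5b and Atp5d, for the alpha, beta and delta subunits, fell, with log2 fold changes of -0.88, -0.66 and -0.66. Atp5e, for the epsilon subunit, had 269, 361 and 364 CPM in the WT mice and 170.3, 277 and 170.2 CPM in the Trpm2-/- mice, and Trpm2-/- mouse 2 exceeded WT mouse 1 (edgeR adjusted p = 0.0691). All 4 tested genes of the peripheral stalk fell, Atp5f1 by a log2 fold change of -0.87, Atp5o by -0.90, Atp5j by -0.73 and Atp5h by -0.67. Other genes share 34.2% of the windows of Atp5o and 14.6% of those of Atp5h.

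Of the other membrane subunits Atp5l and Atp5j2 fell, with log2 fold changes of -0.78 and -0.73. Atp5k, the e subunit at the dimer interface, had 100.4, 154 and 169.8 CPM in the WT mice and 59.2, 115 and 34.9 CPM in the Trpm2-/- mice. Trpm2-/- mouse 2 lay above WT mouse 1 and mouse 4 was lowest, and the log2 fold change of -1.02 ± 0.37 did not pass (edgeR adjusted p = 0.105). Atp5mpl had 163, 239 and 243 CPM in the WT mice and 122, 135 and 169.9 CPM in the Trpm2-/- mice, and Trpm2-/- mouse 4 exceeded WT mouse 1 (edgeR adjusted p = 0.0726). Atp5s, a coupling factor with the largest p of the complex, had 16.3, 17.7 and 18.04 CPM in the WT mice and 10.1, 11.9 and 16.7 CPM in the Trpm2-/- mice, and Trpm2-/- mouse 4 lay above WT mouse 1 (log2 fold change -0.43 ± 0.21, edgeR adjusted p = 0.218). Of the 5 assembly factors and regulators of complex V, Fmc1, an assembly factor, fell by a log2 fold change of -1.10. Atpif1, the inhibitor that stops the synthase from running backwards, and Atpaf1 did not pass, at -0.49 and -0.39.

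The mice of a genotype differed in an ordered way across the members. WT mouse 1 was the lowest WT mouse for all 44 tested members, a position it held for 38.9% of all genes tested. Its median log2 ratio to the WT mean was -0.29, against 0.10 for WT mouse 2 and 0.14 for WT mouse 3, and -0.94, -0.65 and -0.78 for Trpm2-/- mice 1, 2 and 4. Without WT mouse 1 the members' median log2 fold change was -0.87, with 34 called lower, and 14 in place of 3 passed the methods' threshold. Of all 16375 genes tested in that setting, 785 passed this threshold in the lower direction. In 7 of the 9 members whose groups overlapped, WT mouse 1 was the only WT mouse inside the Trpm2-/- range.

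**Figure D4:**
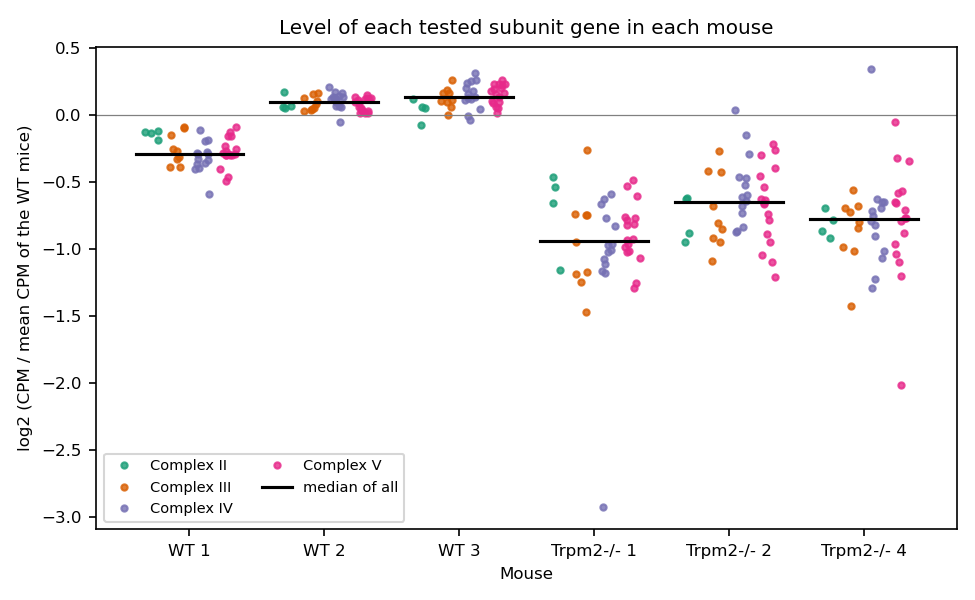
Log2 of the ratio of each member's CPM to the mean of the WT mice (y axis) in each mouse (x axis), coloured by complex, with bars at the median of the 44 members. The medians are -0.29, 0.10 and 0.14 in the WT mice and -0.94, -0.65 and -0.78 in the Trpm2-/- mice, and Cox7a1 in Trpm2-/- mouse 1 is the lowest point.

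Among the Trpm2-/- mice, mouse 2 was highest for 24 members (54.5%) and mouse 1 lowest for 23 (52.3%). Over all genes tested the same shares were 32.3% and 34.9%. The log2 ratio of mouse 2 to mouse 1 differed between members. It was 0.95 for Atp5k and 0.88 for Cox5b, which are short genes, and -0.48 for the longer Sdha. The longest members, Atp5l and Atp5g1, were at 0.24 and 0.34, and the short Uqcrfs1 at -0.35, so the order did not follow length gene by gene. Across the 42 members over a log2 CPM of 3, this ratio had Pearson's r of -0.49 with log2 gene length and of 0.41 with GC content. Over 14398 genes above 1 CPM the same values were -0.23 and 0.26. Genes are not replicates, and all these points come from the same 2 libraries. Without Trpm2-/- mouse 2, 38 members were called lower and 12 passed the methods' threshold, with 757 of all 16281 genes tested passing it in the lower direction.

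Of the 5 mitochondrially encoded subunits of these complexes that could be tested, 2 rose and none fell. mt-Co1, the catalytic core of complex IV, had 17924, 17461 and 15129 CPM in the WT mice and 32600.4, 28179 and 39422 CPM in the Trpm2-/- mice and rose (log2 fold change 0.99 ± 0.22, edgeR adjusted p = 0.0213). mt-Co2 had 94.2, 169 and 135 CPM in the WT mice and 251, 189.6 and 289 CPM in the Trpm2-/- mice and rose too (log2 fold change 0.87 ± 0.23, edgeR adjusted p = 0.0362). Both were higher in all Trpm2-/- mice than in all WT mice, an order shown by 2641 of the 15816 genes tested. mt-Cytb of complex III had 6572, 7535 and 7539.9 CPM in the WT mice and 9769.6, 10028 and 14817 CPM in the Trpm2-/- mice, also without overlap, but did not pass (log2 fold change 0.68 ± 0.22, edgeR adjusted p = 0.0764). mt-Co3 had 68.8, 83.9 and 111 CPM in the WT mice and 102, 128 and 105 CPM in the Trpm2-/- mice, and mt-Atp6 of complex V had 62.97, 73.6 and 91.8 CPM in the WT mice and 86.5, 61.2 and 87.5 CPM in the Trpm2-/- mice. For these genes the genotypes overlapped, and the log2 fold changes were 0.35 and 0.04. mt-Atp8 was too low to test. Nearly all windows of mt-Co2, mt-Co3 and mt-Atp6 (99.5%), and 39.8% of those of mt-Co1, also occur in other genes of the annotation, so their levels are uncertain.

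The ratio of the 3 mt-Co genes to the nuclear complex IV members in FPKM was 2.19, 1.62 and 1.39 in the WT mice and 6.24, 4.09 and 7.16 in the Trpm2-/- mice. That of mt-Cytb to the nuclear complex III members was 2.60, 2.25 and 2.19 in WT and 6.31, 4.90 and 8.70 in Trpm2-/- mice. Neither ratio overlapped between genotypes. All genes of the mitochondrial genome took 4.43% to 4.72% of the counts in WT and 7.91% to 11.04% in Trpm2-/- mice. With these genes left out of the library sizes, 32 members were still called lower, at a median of -0.75.

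**Figure D5:**
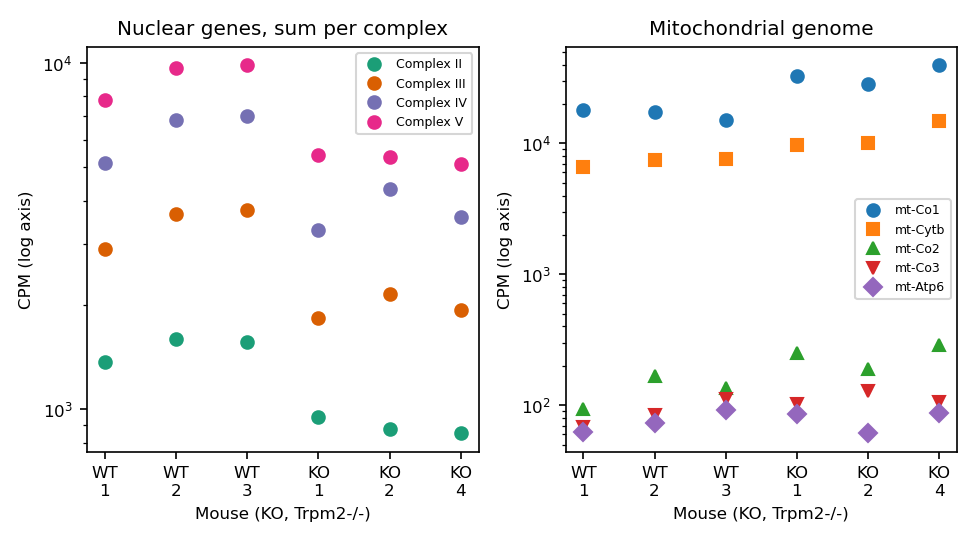
CPM (log y axis) in each mouse, with the sum of the nuclear members of each complex on the left and single mitochondrially encoded genes on the right (KO, Trpm2-/-). The 4 nuclear sums are lower in every Trpm2-/- mouse than in every WT mouse, and mt-Co1, mt-Co2 and mt-Cytb are higher.

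Complex I, by the names starting with Nduf, had 33 of 46 genes called lower and a median of -0.79. That name rule also takes Ndufa4 and any assembly factors so named. The mitochondrial ribosome had 14 of 77 called lower (median -0.38), and the median of 99 genes of the cytosolic ribosome was -0.15. Differences between the members and these families were not tested. Of the electron carriers, Etfa, which feeds electrons from fatty acid oxidation to ubiquinone, fell by a log2 fold change of -1.09. Etfb did not pass at -1.15, and Cycs, cytochrome c itself, had 318, 403 and 343 CPM in the WT mice and 434, 419 and 273 CPM in the Trpm2-/- mice and a log2 fold change of 0.08.

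Of 15 transcriptional regulators of respiratory genes, 1 was called lower and none higher by edgeR (2 in each direction at an unadjusted p under 0.05), limma-voom called none in either direction, 6 estimates were below 0, and the median log2 fold change was 0.12. Esrrb, an estrogen-related receptor, fell by a log2 fold change of -0.99 (edgeR adjusted p = 0.0397). Ppargc1a, the coactivator PGC-1 alpha, had 39.7, 38.6 and 49.1 CPM in the WT mice and 30.4, 22.1 and 39.9 CPM in the Trpm2-/- mice, which overlapped (log2 fold change -0.46 ± 0.21, edgeR adjusted p = 0.182). Gabpb1, a partner subunit of GABP, had 26.1, 25.4 and 24.6 CPM in the WT mice and 32.99, 30.3 and 33.7 CPM in the Trpm2-/- mice, and Gabpb2 had 26.6, 25.96 and 26.2 CPM in the WT mice and 37.8, 30.04 and 32.6 CPM in the Trpm2-/- mice. Both were higher in every Trpm2-/- mouse, without passing (log2 fold changes 0.35 and 0.35, edgeR adjusted p = 0.104 and 0.127). Of the 15 regulators, 3 were higher and 3 lower in every Trpm2-/- mouse than in every WT mouse. These orders were shown by 2641 and 2663 of the 15816 genes tested. Esrra had 124, 119 and 141 CPM in the WT mice and 88.7, 116 and 79.2 CPM in the Trpm2-/- mice. It was lower in every Trpm2-/- mouse, also without passing (log2 fold change -0.43 ± 0.16, edgeR adjusted p = 0.112). Nrf1 and Gabpa did not pass either, at log2 fold changes of 0.14 and 0.12.

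Among markers of kidney cell types, all 10 proximal tubule markers fell, with a median log2 fold change of -1.45. Their summed level was 4864 to 6583 CPM in WT and 2048 to 2536 CPM in Trpm2-/- mice. The ratio of the members' summed CPM to that of these markers was 3.37 to 4.02 in WT and 4.53 to 6.19 in Trpm2-/- mice. The largest part of the marker sum came from Slc27a2 (log2 fold change -0.97), at 2298 to 2989 CPM in WT and 1200 to 1407 CPM in Trpm2-/- mice. Of the thick ascending limb markers 1 of 4 fell, and of the collecting duct markers 2 of 6. Of the leukocyte markers 1 of 6 fell, and none of these lists held a marker that rose. Their median log2 fold changes were -0.84, -0.35 and -0.17. The leukocyte call, C1qa, had overlapping groups, and limma-voom called none of that list. Ptprc, another leukocyte marker, was higher in every Trpm2-/- mouse without passing (log2 fold change 0.76, edgeR adjusted p = 0.164), an order shown by 2641 of the 15816 genes tested. No marker passed edgeR's test among 3 of the distal convoluted tubule (median log2 fold change -0.46), 5 of fibroblasts (median 0.06), 4 of podocytes (median 1.00) and 5 of the endothelium (median 0.41), where 1, 0, 2 and 0 had an unadjusted p under 0.05, and DESeq2 and limma-voom called none of them either. Podocyte markers summed to 385 CPM in Trpm2-/- mouse 4 and to 95.1 to 136 CPM in the other mice, and endothelial markers to 191 CPM in that mouse and 42.7 to 75.6 CPM in the others. Of 7 tubular injury markers 2 rose, Sox9 (log2 fold change 1.16) and Krt20 (0.79). The part of these shifts in the members' values was not tested.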

How the data were processed

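Kidney RNA was sequenced by the authors with the NEBNext Ultra II kit on an Illumina HiSeq instrument, from 3 WT and 3 Trpm2-/- mice. The authors deposited whole-number read counts per gene without normalization, and FPKM values that they made from these counts, the gene length and a library total. The submitters' processing notes name HISAT2, StringTie and mm9, with no versions or roles, whereas 53499 of 54409 matched genes had the positions of GENCODE release 21 (GRCm38), 47 of the 49 members among them. Coordinates are given as in the files. Strandedness is not given in the sources used here.

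Counts were filtered with filterByExpr, which kept 15816 genes, normalized by TMM and tested in R 4.3.3 with edgeR 4.0.16 (two-sided quasi-likelihood test, genotype as the only term, Benjamini-Hochberg adjustment over all genes tested). Each standard error was obtained from the estimate and its F statistic (estimate over root F). CPM values use TMM library sizes. FPKM ratios of paralogues were compared by exact permutation tests. Alternatives used DESeq2 1.42.0 and limma 3.58.1, other scalings and filters, a gene length correction, FPKM with pseudocounts of 1 and 0.1, a replicate block and leaving out each mouse. Corrections for GC content, alone or with length, the test against a fold change of 1.2 and the paralogue ratios were added after seeing the data.

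Values in every mouse are given for the 3 members of each complex with the smallest p and the one with the largest, all Sdh genes, members with a tissue specific paralogue, members that did not pass and mitochondrially encoded subunits. The rule also takes up to 3 genes with the smallest p of each other list, most of which are given here by their fold change alone. Other genes of those lists, such as Ppargc1a and Cycs, and the values printed for them were chosen after the data were seen. The members and all gene lists were chosen with earlier results of these data known. The labels number the mice but give no litter or day, so p-values measure the spread between these mice. Sequence shared with other genes was measured on GENCODE transcripts in windows of 75 bases, on either strand. Libraries of a genotype differed beyond counting noise (13.5 to 36.7 chi-square units per degree of freedom), so none was a copy of another.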

Additional observations from a re-analysis of the deposited data

How the results depend on the processing

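The direction held for all 44 tested members under all alternatives except Cox4i2, which became 0.18 with the gene length correction, -0.49 to 0.12 when a mouse was left out (highest without Trpm2-/- mouse 1) and 0.21 with the added correction for length and GC content. Members called lower were 21 with the gene length correction, 17 in the added test against a fold change of 1.2 and 7 to 38 when a mouse was left out, the lowest without WT mouse 3 and the highest without Trpm2-/- mouse 2. With the replicate block there were 10 calls, with 4.18% of all genes called lower. DESeq2 called 39 (9.13% of all genes), limma-voom 33 (7.28%), limma on FPKM 24 with either pseudocount (6.49%), upper-quartile factors 31 (6.67%) and the GC correction 33 (7.39%). No alternative called a member higher. Members past the methods' threshold were 5 without a filter on low counts, where 920 of 28884 genes passed it in the lower direction. They were 1 with the length and GC correction (524 of 15816 genes) and 2 to 14 when a mouse was left out (538 to 863 genes). The members' median ranged from -0.87 to -0.57. Only numbers 1 and 2 occur in both genotypes, and deviations of same-numbered mice correlated at 0.05 and -0.01. The labels give no litter or day, and these correlations cannot show whether same-numbered mice shared one. The cause of the differences between settings was not tested. With 3 mice per genotype, exact tests of a single value cannot pass 0.05.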
